A study of Homo sapiens with 18 samples.

Results

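The genes described here are 10 members of the AP-1 and immediate early response: FOS, FOSB, FOSL1, FOSL2, JUN, JUNB, JUND, EGR1, ATF3 and DUSP1. They were the rows of the deposited count table whose Ensembl identifier, without its version, maps to one of these symbols. All 10 were found among the 35044 genes of the table, and all 10 were among the 18335 genes with enough counts to be tested. The counts came from RNA-seq of HCC1937, a human breast cancer cell line with a mutated BRCA1. One derivative carried an empty vector (HCC1937-EV) and the other overexpressed wild-type BRCA1 (HCC1937-OE-BRCA1). Libraries were made from untreated cells of each line and from cells kept for 12 h or 24 h in 10 µmol/L olaparib, an inhibitor of the DNA repair enzyme PARP1 (PARPi). There were 3 libraries in each of 6 groups and 18 in all. The genotype entry of the labels reads WT for HCC1937-EV and BRCA1 overexpression for the other line, and the treatment entry reads Olaparib also for the untreated libraries, so line and time were taken from the titles. The sources used here do not say whether the libraries of a group came from separate cultures, so p-values measure only the spread between libraries, which may be technical.

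AP-1 is a dimeric transcription factor made of a FOS family and a JUN family protein, or of a pair of JUN proteins, that binds short palindromic sites in promoters and enhancers. FOS, FOSB, JUN, JUNB, EGR1, ATF3 and DUSP1 are immediate early genes, whose transcription starts shortly after a growth factor or stress signal without the need for new protein. FOSL1 and FOSL2 are slower to respond and can be held at a steady level in cancer cells. ATF3 is a stress-induced factor of the same basic leucine zipper class, and DUSP1 is a phosphatase that switches off the MAP kinases that drive the other genes.

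Marker genes were compared with the labels first. BRCA1, the targeted gene, was at 118 ± 7.70 CPM (CPM, the counts scaled to a fixed library total after TMM correction, mean ± SD, n = 3) in untreated HCC1937-EV and at 138 ± 24.0 CPM in untreated HCC1937-OE-BRCA1. This difference of 0.24 on the log2 scale did not pass edgeR's quasi-likelihood test (adjusted p = 0.0654), and at 24 h BRCA1 was called 1.71-fold higher in the second line (adjusted p = 3.165e-06). Several epithelial genes, but not all, were at or near 0 in the libraries labelled HCC1937-EV. Untreated, EPCAM was at 0.0206 CPM against 310.1 CPM in the other line. ESRP1 was at 0 against 271.9 CPM, and CDH1 was at 0.659 against 433.5 CPM. The basal keratin gene KRT5 was at 0.0825 against 1550 CPM, and the mesenchymal gene VIM was at 306 against 1.05 CPM. The summed level of the 6 listed epithelial markers was 444.2 to 463.1 CPM in untreated HCC1937-EV, nearly all of it KRT7 at 449.1 CPM, and 3032 to 3500 CPM in untreated HCC1937-OE-BRCA1. Luminal breast markers, a list with the keratin genes KRT8, KRT18 and KRT19, were present in both lines as a sum. Their 7 genes summed to 2851 to 3023 CPM in untreated HCC1937-EV and to 4577 to 6067 CPM in untreated HCC1937-OE-BRCA1. Which of these genes made up the sums is not given here. The 8 basal markers, KRT5 among them, summed to 271 to 276.2 CPM in untreated HCC1937-EV and to 3969 to 5000 CPM in untreated HCC1937-OE-BRCA1. The lines are therefore called EV-labelled and OE-labelled, and the vector cannot be told apart from these other differences in any comparison between them. In bulk RNA a smaller share of expressing cells and less RNA in each cell cannot be told apart either. Total counts per library were 15081973 to 17571922, and genes of mitochondrial DNA took 4.99% to 8.33% of them.

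The promoters of a few members are shown. For JUN, ATF3, JUND and DUSP1 the difference in olaparib response between the lines was called at 24 h, and their windows hold a site marked in capitals. FOSB was also called (-1.53, adjusted p = 0.0312 by edgeR's quasi-likelihood test), but its window holds no such site and is not shown. FOSL2 and EGR1 hold such sites and were not called in that test (adjusted p = 0.578 and 0.916). The choice of windows therefore does not relate the sites to the response. With an offset for GC content and length, described with JUND, the differences of JUND and DUSP1 were -0.03 and -0.50 and not called. EGR1 is shown because it carries the sites of the serum response factor SRF, a gene of the upstream list. RefSeq windows of 300 bases, from 250 before to 50 after the transcription start on GRCh38.p14, were found for 9 of the 10 genes, all but FOSL1, with 2 windows for ATF3. Capitals mark matches to the AP-1 site TGANTCA, the cAMP response element TGACGTCA, the variant AP-1 site TGACATCA on both strands, or the CArG box, the site class of SRF. These letters were found in 7.71%, 1.85%, 2.61% and 1.29% of the 35116 promoter windows of that length.
JUN, chr1:58783998-58784297, minus strand: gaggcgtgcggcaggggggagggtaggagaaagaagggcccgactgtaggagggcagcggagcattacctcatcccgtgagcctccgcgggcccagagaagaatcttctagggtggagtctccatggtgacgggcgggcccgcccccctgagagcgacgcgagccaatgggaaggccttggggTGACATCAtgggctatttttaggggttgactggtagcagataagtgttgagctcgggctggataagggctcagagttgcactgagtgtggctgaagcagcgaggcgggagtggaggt
ATF3, first window, chr1:212565157-212565456, plus strand: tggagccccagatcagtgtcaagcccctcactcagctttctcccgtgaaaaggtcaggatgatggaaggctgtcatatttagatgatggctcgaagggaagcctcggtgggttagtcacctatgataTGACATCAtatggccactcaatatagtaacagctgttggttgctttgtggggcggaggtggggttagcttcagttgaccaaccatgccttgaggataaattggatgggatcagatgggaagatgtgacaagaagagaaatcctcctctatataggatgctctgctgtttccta
JUND, chr19:18281573-18281872, minus strand: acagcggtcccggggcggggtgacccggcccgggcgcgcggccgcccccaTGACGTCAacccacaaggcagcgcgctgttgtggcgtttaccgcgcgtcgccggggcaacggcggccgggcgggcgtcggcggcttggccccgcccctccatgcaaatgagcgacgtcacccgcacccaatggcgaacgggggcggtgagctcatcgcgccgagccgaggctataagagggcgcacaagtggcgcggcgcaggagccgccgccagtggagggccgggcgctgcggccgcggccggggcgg
DUSP1, chr5:172771146-172771445, minus strand: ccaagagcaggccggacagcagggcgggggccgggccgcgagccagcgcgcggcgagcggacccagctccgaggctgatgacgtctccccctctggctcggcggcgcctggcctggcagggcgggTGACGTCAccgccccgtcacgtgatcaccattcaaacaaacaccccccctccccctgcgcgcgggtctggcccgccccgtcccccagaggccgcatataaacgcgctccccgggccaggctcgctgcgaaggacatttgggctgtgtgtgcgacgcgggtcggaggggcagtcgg
EGR1, chr5:138465229-138465528, plus strand: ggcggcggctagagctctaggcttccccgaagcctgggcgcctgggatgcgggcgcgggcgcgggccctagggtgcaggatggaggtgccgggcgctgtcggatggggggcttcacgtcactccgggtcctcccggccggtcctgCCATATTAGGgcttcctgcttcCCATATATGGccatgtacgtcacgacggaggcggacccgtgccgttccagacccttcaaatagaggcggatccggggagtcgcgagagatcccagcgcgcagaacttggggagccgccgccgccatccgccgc
JUN and ATF3 share the letters TGACATCA, which begin at position -67 of JUN and at position -123 of the ATF3 window, counted from the base before the start as -1. JUND and DUSP1 share TGACGTCA, at -200 and -125. EGR1 holds 2 CArG boxes, at -105 and -83, the only member window with this match, and that of FOSL2 is the only one with TGANTCA, at position 5 after the start. Sites more than 250 bases before the start were not searched, so a window without a match does not show that the gene lacks the site. The shorter letters TGACG, on either strand and contained in the cAMP response element, were present in 8 of the 9 genes with a window and in 24.6% of all windows. A match is a description of the letters and was not related to binding, which was not measured here.

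In the FOS family, the transcript pool had a different leading member in each line. Per kilobase of exon, untreated EV-labelled cells held 17.9 CPM of FOSL2 and 3.54 CPM of FOSL1, so that FOSL2 made up 78.4% ± 0.925 (SD, n = 3) of the summed level of FOS, FOSB, FOSL1 and FOSL2. Untreated OE-labelled cells held 10.5 CPM of FOSL2 and 39.2 CPM of FOSL1 per kilobase, and FOSL1 made up 76.2% ± 1.86. FOS itself, the founding member, was 5.55% ± 1.52 of the family sum in the first and 2.33% ± 0.542 in the second. The family sum was 22.9 ± 1.17 and 51.5 ± 3.31 CPM per kilobase. Olaparib left these leaders in place at both times, with FOSL2 at 77.5% in EV-labelled cells at 24 h and FOSL1 at 70.4% in OE-labelled cells at 24 h.

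**Figure D1:**
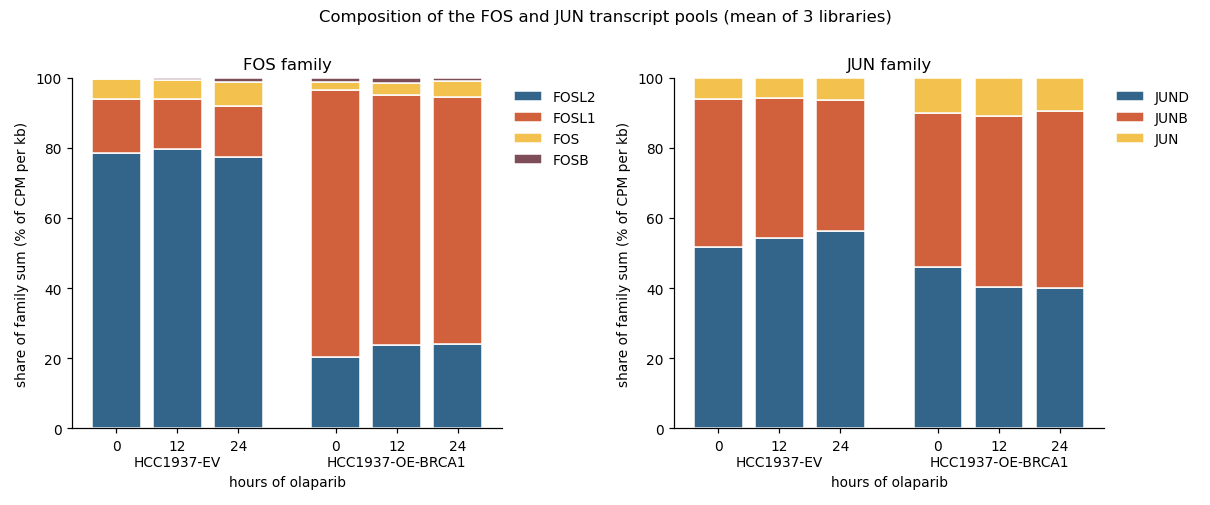
Share of each member in the summed transcript level of the FOS family (left) and of the JUN family (right), in percent of CPM per kilobase of exon, as the mean of 3 libraries by line and hours of olaparib. FOSL2 is 78.4% of the FOS family in untreated EV-labelled cells and FOSL1 is 76.2% in untreated OE-labelled cells, while JUND and JUNB together make up most of the JUN family in all 6 groups.

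FOSL1, a Fos-related protein on chromosome 11 (chr11:65892049-65900573, minus strand, GRCh38), was at 7.08, 6.86 and 6.11 CPM in the untreated EV-labelled libraries and at 69.0, 76.0 and 76.9 CPM in the untreated OE-labelled libraries. The groups did not overlap, and the 11.1-fold difference (log2 3.47 ± 0.13 SE) was called with an adjusted p of 2.078e-15. At 12 h the gene was at 58.4, 56.9 and 61.7 CPM in OE-labelled cells and at 24 h at 61.3, 57.5 and 60.5 CPM, both below every untreated library. These differences from untreated, -0.33 and then -0.31, did not pass over all genes (adjusted p = 0.191 and 0.102). DESeq2's Wald test called both (adjusted p = 0.023 and 0.0124). The offset for GC content and length, described with JUND, called the first, at -0.38 (adjusted p = 0.0324), and not the second, at -0.17 (adjusted p = 0.318). Without untreated replicate 1 the 24 h difference was called (-0.36, adjusted p = 0.0497). In EV-labelled cells the levels at 12 h and 24 h, 5.83 ± 1.05 and 5.95 ± 0.927 CPM, overlapped with the untreated level, and the 24 h difference of -0.17 was not called (adjusted p = 0.448). With the GC and length offset it was -0.54 and called (adjusted p = 0.0188).

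FOSL2 (chr2:28392448-28417312, plus strand), the other Fos-related gene, had the reverse order. It was at 120, 129 and 136 CPM in the untreated EV-labelled libraries and at 71.6, 68.1 and 84.6 CPM in the untreated OE-labelled ones, a log2 difference of -0.78 (adjusted p = 2.381e-06). Over all 6 groups every OE-labelled library lay below every EV-labelled one. Olaparib moved it least among the family: the 4 log2 changes from untreated lay between -0.10 and 0.05, with confidence intervals inside -0.33 to 0.28.

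FOS (chr14:75278774-75282230, plus strand), the prototype immediate early gene, was low in every library. It was at 3.48, 3.28 and 5.67 CPM in untreated EV-labelled cells and at 3.32, 3.20 and 5.23 CPM in untreated OE-labelled cells. The lines overlapped, with a log2 difference of -0.08 (95% interval -0.55 to 0.38), which made FOS the one member not called between the untreated lines. In OE-labelled cells it was at 5.15, 4.96 and 4.96 CPM after 12 h and at 5.84, 7.12 and 6.81 CPM after 24 h. The 24 h libraries all lay above all the untreated ones, and the rise of 0.75 ± 0.22 (1.68-fold) over untreated was called with an adjusted p of 0.0358. The call rests on small counts, 52 to 116 reads a library, and in the 6 fits that left out 1 library of the 2 groups it was kept only without untreated replicate 3, the highest of its group (adjusted p = 0.0119), and lost without any of the other 5 (adjusted p 0.0555 to 0.173). It was also lost when the compared groups were fitted alone (adjusted p = 0.0747). In EV-labelled cells FOS was at 5.25, 5.07 and 3.95 CPM at 24 h, which overlapped with untreated. The 24 h difference between the lines, 0.47, was not called (adjusted p = 0.0518), but it was called with the GC and length offset (0.56, adjusted p = 0.0131), with DESeq2's size factors (adjusted p = 0.0379), with at least 10 counts in every library (adjusted p = 0.0299) and with these groups alone (adjusted p = 0.0199).

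FOSB (chr19:45467995-45475179, plus strand), a close relative of FOS, had the fewest reads. It was counted 9, 16 and 6 times in the untreated EV-labelled libraries, or 0.559, 0.989 and 0.370 CPM, and 48, 70 and 51 times in the untreated OE-labelled ones, or 2.96, 4.31 and 3.21 CPM. The count of 6 has an exact Poisson interval of 2.20 to 13.1 reads, which covers counting error alone. The lines did not overlap and the untreated difference was 5.41-fold (log2 2.44 ± 0.35, adjusted p = 2.762e-06). After 24 h the gene was at 1.65, 0.825 and 1.68 CPM in EV-labelled cells, which overlapped with untreated. This change had the largest fitted fold of any member under olaparib, 2.15-fold (log2 1.11 ± 0.38), and was not called (adjusted p = 0.0585). It was called by DESeq2's Wald test (adjusted p = 0.0384), without a filter on low counts (adjusted p = 0.0438) and without untreated replicate 2 (1.56, adjusted p = 0.0373), and not with the GC and length offset (0.92, adjusted p = 0.121). OE-labelled cells were then at 2.64, 1.90 and 3.25 CPM. The difference between the lines at 24 h was 0.90 on the log2 scale (adjusted p = 0.0153), and it was lost without replicate 2 of the first group (adjusted p = 0.0913) or replicate 3 of the second (adjusted p = 0.0809).

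**Figure D2:**
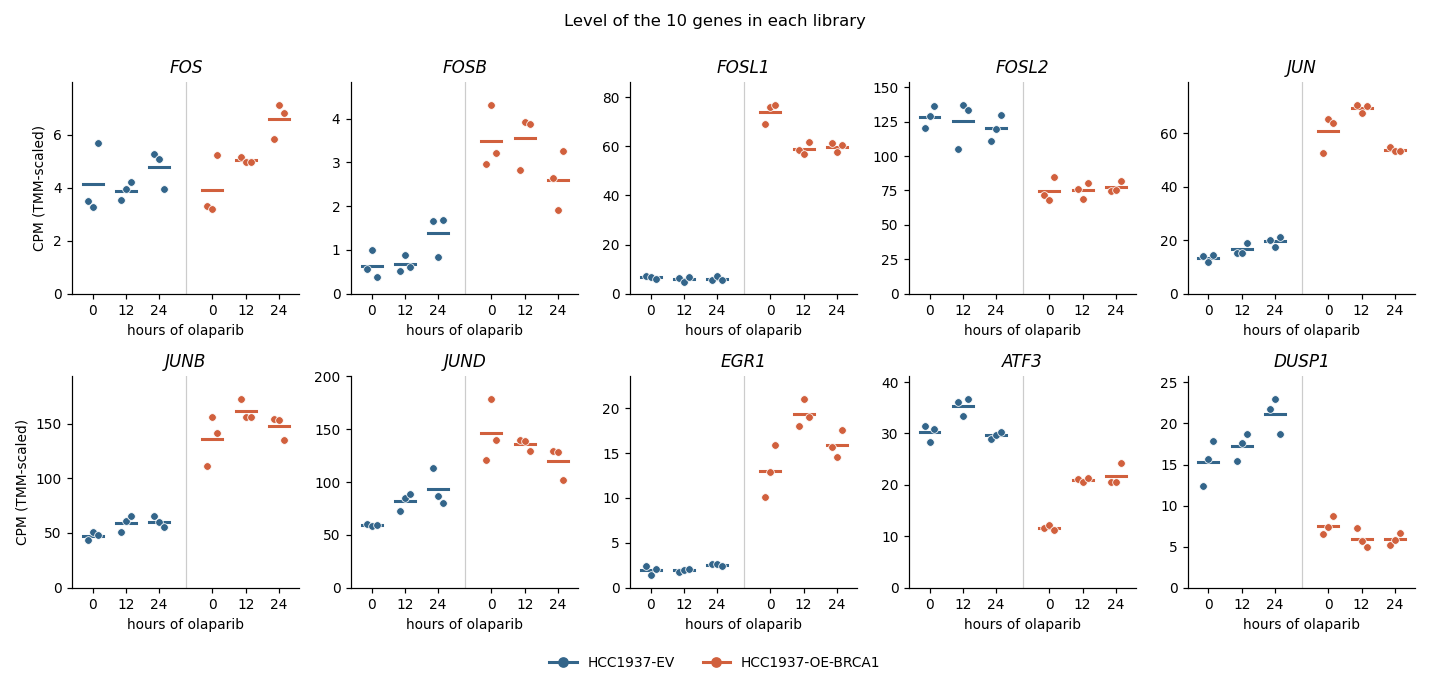
Level of each of the 10 genes in each of the 18 libraries, in CPM on TMM-scaled library sizes, by line and hours of olaparib. Points are libraries and bars are means of 3. FOSB, FOSL1, JUN, JUNB and EGR1 are higher and FOSL2, ATF3 and DUSP1 lower in every OE-labelled library than in every EV-labelled library. ATF3 in OE-labelled cells goes from 11.7 CPM untreated to 21.0 and 21.8 CPM.

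In the JUN family, all 3 members were higher in OE-labelled cells, and JUND and JUNB made up most of the pool in both lines. Per kilobase of exon the untreated EV-labelled level was 32.0 CPM for JUND, 26.2 CPM for JUNB and 3.79 CPM for JUN, and the untreated OE-labelled level was 78.7, 74.8 and 17.1 CPM. JUND was 51.6% ± 1.84 of the family sum in the first and 46.0% ± 1.98 in the second. At 24 h it was 56.2% ± 2.65 in EV-labelled and 40.0% ± 1.69 in OE-labelled cells, where JUNB was 50.5% ± 0.883.

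JUN (chr1:58780788-58784327, minus strand, a gene of a single exon), the main activating partner of FOS, was at 14.04, 11.9 and 14.4 CPM in untreated EV-labelled cells and at 52.7, 65.4 and 64.0 CPM in untreated OE-labelled cells. The 4.52-fold difference (log2 2.18 ± 0.12) was called with an adjusted p of 1.064e-12. Under olaparib EV-labelled cells went to 15.4, 15.2 and 19.1 CPM at 12 h and 19.9, 17.6 and 21.3 CPM at 24 h. Every 24 h library was above every untreated one, and JUN rose 1.46-fold (0.55 ± 0.12, adjusted p = 0.00897), a call that was kept in all 6 fits with 1 library left out (adjusted p 0.0214 to 0.0435). OE-labelled cells were at 70.6, 67.4 and 70.4 CPM at 12 h and at 54.8, 53.2 and 53.5 CPM at 24 h, a log2 difference from untreated of 0.19 and then -0.17 (adjusted p = 0.549 and 0.381).

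JUND (chr19:18279760-18281622, minus strand, a gene of a single exon), the member usually present in resting cells, was at 60.5, 58.3 and 59.8 CPM in untreated EV-labelled cells and at 121, 179 and 140 CPM in untreated OE-labelled cells (log2 difference 1.30 ± 0.14, adjusted p = 4.259e-08). At 24 h EV-labelled cells were at 113, 86.8 and 80.5 CPM, all above untreated, and JUND rose 1.57-fold (0.65 ± 0.14, adjusted p = 0.00718), a call lost without replicate 1 of the 24 h group, its highest library (0.49, adjusted p = 0.0511). OE-labelled cells were then at 130, 128 and 102 CPM, which overlapped with untreated (-0.29 ± 0.14, adjusted p = 0.209). By 24 h the line difference had a log2 size of 0.36 (adjusted p = 0.0235), and it was called in 2 of the 6 fits with 1 library left out, not without EV-labelled replicate 2 or 3 or OE-labelled replicate 1 or 2 of that time (adjusted p 0.0758 to 0.114). The longest transcript of JUND has a GC content of 69.7%, above that of 99.4% of the genes in the table. The libraries differed in how their levels followed GC content. Spearman's rho between a gene's GC content and its deviation from the line's mean was -0.555, -0.218 and -0.412 in the untreated EV-labelled libraries and 0.260, 0.580 and 0.403 in the 24 h ones. In OE-labelled cells it was -0.586, 0.293 and 0.547 untreated and -0.290, -0.393 and -0.440 at 24 h. With an offset for GC content and length the JUND change at 24 h was 0.04 in EV-labelled cells (adjusted p = 0.888), so the rise was called only without this offset. At 12 h of olaparib rho was -0.562, -0.199 and 0.616 in the EV-labelled libraries, so it also varied among libraries of 1 group. Between untreated and 24 h the GC trend of EV-labelled cells changed together with treatment. A technical bias and an olaparib effect that follows GC content therefore cannot be told apart. With the offset the difference between the lines was 0.88 untreated and 0.85 at 24 h (adjusted p = 2.392e-07 and 3.289e-07). The smaller difference at 24 h was thus also seen only without it. The offset was fitted relative to each line's own mean. A GC bias common to all libraries of 1 line would remain in these line differences. Under the same offset JUN stayed called in EV-labelled cells, at 0.32 (adjusted p = 0.0351).

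JUNB (chr19:12791496-12793315, plus strand, a gene of a single exon), which can oppose JUN at some targets, was at 43.8, 50.7 and 48.4 CPM in untreated EV-labelled cells and at 111, 156 and 141 CPM in untreated OE-labelled cells. The difference was 2.86-fold (log2 1.52 ± 0.12, adjusted p = 4.294e-10) and the lines did not overlap. At 24 h the levels were 65.9, 60.2 and 55.1 CPM in the first, above all untreated libraries, and 154, 154 and 135 CPM in the second. Neither change passed (0.34, adjusted p = 0.0625, and 0.12, adjusted p = 0.605). The first was called by DESeq2's Wald test (adjusted p = 0.0331), without a filter on low counts (adjusted p = 0.0463) and with the compared groups alone (adjusted p = 0.00918). With the offset for GC content and length they were -0.15 (adjusted p = 0.149) and 0.35, the latter called (adjusted p = 0.000734). The longest JUNB transcript has a GC content of 64.9%, and 259 bases of the JUNB exons, or 14.2%, overlap with exons of HOOK2 on the other strand. The strand setting of the counting is not given in the sources used here, so reads of the 2 genes in this stretch cannot be told apart. HOOK2 was at 24.4 CPM in untreated EV-labelled and 100.5 CPM in untreated OE-labelled cells.

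EGR1 (chr5:138465490-138469315, plus strand), a zinc finger factor induced through SRF by ERK signaling, was at 2.42, 1.36 and 2.10 CPM in untreated EV-labelled cells and at 10.2, 12.9 and 15.9 CPM in untreated OE-labelled cells. The groups did not overlap and the difference was 6.62-fold (log2 2.73 ± 0.20, adjusted p = 7.276e-11). In OE-labelled cells the 12 h libraries were at 17.97, 21.0 and 19.0 CPM, all above untreated, and the 24 h ones at 15.7, 14.6 and 17.6 CPM. The 12 h difference of 0.57 ± 0.16 was not called (adjusted p = 0.0744). It was called without untreated replicate 3, the highest of its group (0.74, adjusted p = 0.0211), with DESeq2's Wald test (adjusted p = 0.0371) and with the GC and length offset (0.52, adjusted p = 0.0354). In EV-labelled cells EGR1 was at 2.60, 2.59 and 2.46 CPM at 24 h, just above the untreated libraries (0.38, adjusted p = 0.263). The EV-labelled levels of EGR1 rest on only 22 to 44 reads a library.

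ATF3 (chr1:212565334-212620777, plus strand) had the largest called response to olaparib among the 10 genes, in OE-labelled cells. There it was at 11.6, 12.2 and 11.2 CPM untreated, at 21.1, 20.6 and 21.4 CPM after 12 h and at 20.5, 20.6 and 24.2 CPM after 24 h. No treated library overlapped with an untreated one. The gene rose 1.80-fold by 12 h (0.85 ± 0.11, adjusted p = 3.846e-05), and by 24 h it had risen 1.87-fold (0.90 ± 0.11, adjusted p = 1.153e-05), and the calls were kept in all 6 fits with 1 library left out at each time. EV-labelled cells started higher, at 31.4, 28.4 and 30.8 CPM, and were at 36.1, 33.4 and 36.7 CPM at 12 h and at 28.98, 29.7 and 30.4 CPM at 24 h. Their changes of 0.23 and -0.02 were not called (adjusted p = 0.263 and 0.938). Untreated, ATF3 was 0.386 times as high in OE-labelled as in EV-labelled cells (log2 -1.37 ± 0.11, adjusted p = 1.899e-10), and by 24 h 0.733 times (adjusted p = 0.00048). ATF3 has the lowest GC content of the 10, 46.7% in its longest transcript. With the GC and length offset its rises in OE-labelled cells were 0.83 and 0.82. In the same libraries the summed level of 5 leukocyte markers was 33.9 to 48.7 CPM untreated, 75.9 to 84.1 CPM at 12 h and 72.1 to 86.8 CPM at 24 h, nearly all from CD14, with the pan-leukocyte gene PTPRC near 1 CPM at each time and LYZ and CD68 at no more than 0.164 and 0.124 CPM. The 9 mesenchymal markers summed to 40.1 to 54.7 CPM untreated, 81.9 to 84.3 CPM at 12 h and 79.8 to 98.2 CPM at 24 h, mostly from FN1. Their part in the ATF3 result was not tested.

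DUSP1 (chr5:172768090-172771195, minus strand), the feedback phosphatase, was lower in OE-labelled cells, as FOSL2 and ATF3 were, while the other 6 called members were higher. It was at 12.4, 15.6 and 17.8 CPM in untreated EV-labelled cells and at 6.53, 7.33 and 8.75 CPM in untreated OE-labelled cells (log2 -1.02 ± 0.17, adjusted p = 1.656e-05). After 24 h the lines stood further apart, at 21.7, 23.0 and 18.7 CPM and at 5.22, 5.83 and 6.62 CPM. Within each line the change at 24 h was not called, at 0.47 (adjusted p = 0.0561) in EV-labelled and -0.35 (adjusted p = 0.239) in OE-labelled cells. The first was called by DESeq2's Wald test (adjusted p = 0.0302), with at least 10 counts in every library (adjusted p = 0.0449) and with the compared groups alone (adjusted p = 0.0144), and with the GC and length offset it was 0.22 (adjusted p = 0.292).

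Counted over the 10 genes, no member was called in EV-labelled cells after 12 h, where 0.0436% of all genes tested were called. There 4 members, JUN, JUNB, JUND and ATF3, had an unadjusted p under 0.05 against 16.2% of all genes, and the Wald test of DESeq2, which gave no adjusted p for FOS and FOSB, called none. At 24 h 2 members, JUN and JUND, were called higher in EV-labelled cells against a background of 8.62% called higher and 13.7% called in either direction. The libraries did not overlap with untreated for 5 members, against 39.8% of all genes. In OE-labelled cells 1 member, ATF3, was called at 12 h against 2.31% of all genes (1.7% higher), and 2 members, ATF3 and FOS, at 24 h against 8.26% (4.71% higher). There 4 members at 12 h and 3 at 24 h did not overlap with untreated, against 15.1% and 23.8% of all genes. No member was called between 12 h and 24 h in either line, where 0.18% and 1.65% of genes were. By unadjusted p under 0.05, 2 members differed between these times in EV-labelled cells (9.2% of all genes) and 1 in OE-labelled cells (17.5%), and DESeq2's test called 1, JUN in OE-labelled cells. The comparisons with untreated share their untreated libraries within a line.

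**Figure D3:**
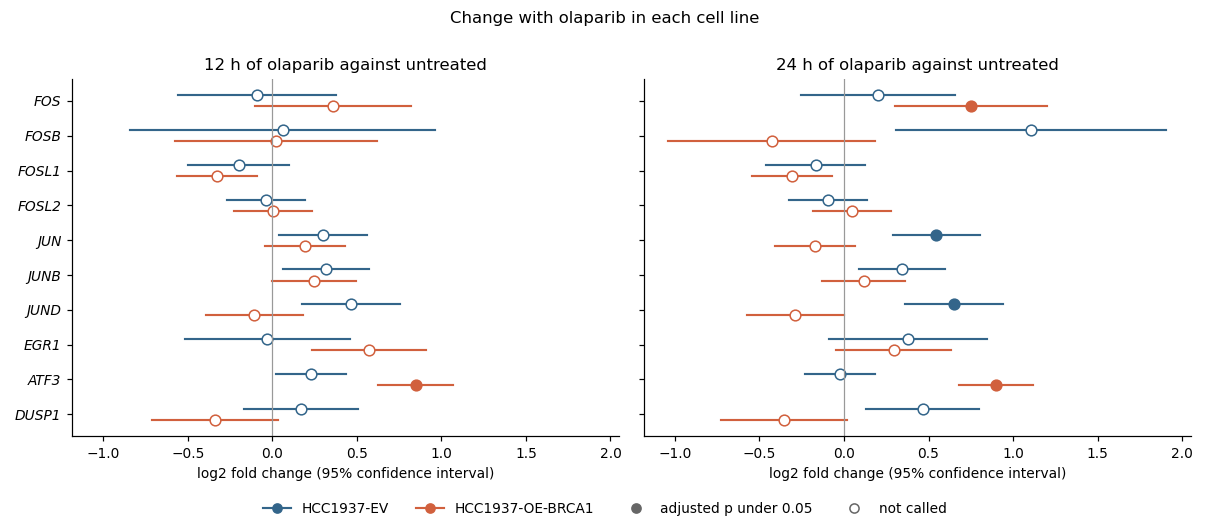
Log2 fold change of each gene after 12 h (left) and 24 h (right) of olaparib against untreated, with its 95% confidence interval, in each line. Filled points passed an adjusted p of 0.05 in edgeR's quasi-likelihood test. ATF3 in OE-labelled cells is filled at both times, FOS in OE-labelled cells at 24 h, and JUN and JUND in EV-labelled cells at 24 h.

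Between the untreated lines 9 of 10 members were called, 6 higher and 3 lower in OE-labelled cells. This count has to be read against a background of 72.7% of all genes called, so it is not a feature of these genes, and 39.4% of genes were higher and 33.3% lower. The libraries of the lines did not overlap for the same 9 members and for 72.4% of all genes. The same 9 genes were called in the same direction at 12 h (background 72.9%) and at 24 h (background 73.9%). The sizes differed more than the calls. FOSL1 was 10.13-fold and 10.04-fold higher at 12 h and 24 h, EGR1 10.03-fold and 6.24-fold, and JUN 4.20-fold and 2.74-fold.

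The direct test of whether olaparib acted differently in the lines gave no called member at 12 h, where 0.518% of genes were called and 4 members had an unadjusted p under 0.05 against 14.7% of all genes. The nearest was ATF3, with a difference of 0.62 ± 0.15 (adjusted p = 0.059), which was called by DESeq2's test (adjusted p = 0.00204), with at least 10 counts in every library (adjusted p = 0.027), with the GC and length offset (0.59, adjusted p = 0.00921) and without OE-labelled untreated replicate 1 (adjusted p = 0.0349). At 24 h 5 members were called against 19.4% of all genes. ATF3 responded more in OE-labelled cells, by 0.92 ± 0.15 on the log2 scale (adjusted p = 0.000525). JUND (-0.94 ± 0.20, adjusted p = 0.00347), JUN (-0.72 ± 0.17, adjusted p = 0.00629), DUSP1 (-0.82 ± 0.24, adjusted p = 0.0216) and FOSB (-1.53 ± 0.48, adjusted p = 0.0312) responded more positively in EV-labelled cells. The differences of ATF3 and JUN were called in all 12 fits with 1 library left out and with the GC and length offset (0.83, adjusted p = 0.000125, and -0.44, adjusted p = 0.0222). That of JUND was called in the same 12 fits but was -0.03 with the offset (adjusted p = 0.973). That of DUSP1 was lost without untreated replicate 1 or 24 h replicate 2 of the EV-labelled line, or untreated replicate 3 or 24 h replicate 1 of the OE-labelled line (adjusted p 0.059 to 0.0665). That of FOSB was lost in 7 of the 12 fits, without untreated or 24 h replicates 1 or 3 of the EV-labelled line, or untreated replicate 2 or 24 h replicates 1 or 2 of the OE-labelled line (adjusted p 0.0521 to 0.098). Neither was called with the offset (DUSP1 at -0.50, adjusted p = 0.0837, and FOSB at -1.30, adjusted p = 0.0674). JUNB had the opposite sign with the offset, 0.50 (adjusted p = 0.00102) against -0.23 without it (adjusted p = 0.379).

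**Figure D4:**
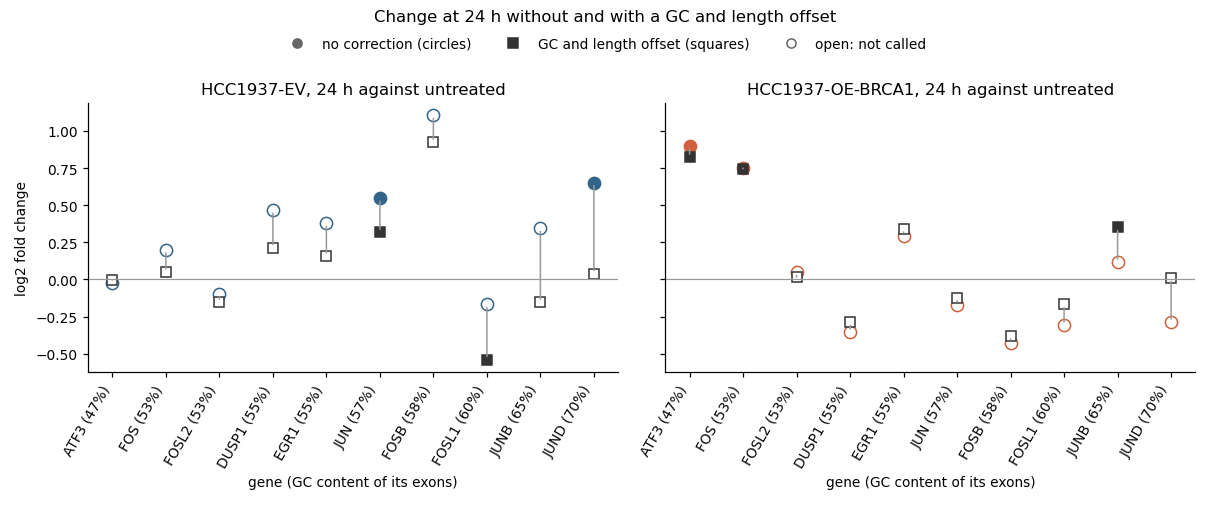
Log2 fold change at 24 h against untreated without (circles) and with (squares) an offset for GC content and length. EV-labelled cells are on the left and OE-labelled cells on the right. Genes are ordered by the GC content of their longest transcript, which the axis names as that of the exons. Filled symbols passed an adjusted p of 0.05. JUND in EV-labelled cells goes from 0.65 to 0.04, while ATF3 in OE-labelled cells stays at 0.90 and 0.82.

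Of the other AP-1 family genes, which include the BATF and MAF factors, 12 of 14 were tested. All changes given for these and the following lists are on the log2 scale and without the GC and length offset. The part of the libraries' differing GC trends in these changes was not tested. At 24 h in OE-labelled cells 2 were higher and 2 lower, where 8.26% of all genes were called. BATF2, an interferon-induced member, rose 1.58 (adjusted p = 0.00401) after 2.11 at 12 h (adjusted p = 0.000383), from 1.76 CPM untreated to 7.60 and 5.28 CPM. BATF fell by 0.999 and JDP2, a repressor that pairs with JUN proteins, fell by 0.51. In EV-labelled cells 1 was called at 24 h, MAFA (0.83, adjusted p = 0.0399), against 13.7% of all genes, and none at 12 h. The medians of the list at 24 h were 0.16 in OE-labelled and 0.04 in EV-labelled cells, against 0.02 and 0 over all genes.

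Of the other immediate early genes 30 of 34 were tested. In EV-labelled cells CEBPB was the one gene called at 12 h, rising 0.59 (adjusted p = 0.0408), and at 24 h 5 were higher and 2 lower, against 13.7% of all genes called. The largest at 24 h were BTG2 (0.68), IER5L (0.64), IER5 (0.59) and RHOB (0.57). In OE-labelled cells CCN2, a matrix-signaling gene, rose 0.72 at 12 h and 1.19 at 24 h, from 6.08 to 13.9 CPM (adjusted p = 1.497e-05 at 24 h), whereas its relative CCN1 fell by 1.05 and by 0.79, from 67.8 to 32.6 and 39.2 CPM. In all, 7 were higher and 1 lower at 24 h, against 8.26% of all genes called, with NR4A2 (0.70) and KLF4 (0.50) among the higher. The medians at 24 h were 0.07 in OE-labelled and 0.08 in EV-labelled cells. Tested directly, the treatment effect differed between the lines at 24 h for 14 of the 30, 7 in each direction, against 19.4% of all genes, with CCN1 at -1.03 and CCN2 at 1.02.

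The MAP kinase phosphatases and feedback inhibitors, the list to which DUSP1 is related, had 15 tested genes. DUSP6, the ERK phosphatase that is itself an ERK response gene, rose in OE-labelled cells by 1.31 in the first 12 h (adjusted p = 0.000122) and stood 1.36 above untreated after 24 h (adjusted p = 5.073e-05), from 5.40 to 13.4 and 13.9 CPM. SPRY2, a Sprouty inhibitor of receptor signaling, rose 0.55 and DUSP9 fell by 0.85 at 24 h. These were the 3 called of 15, against 8.26% of all genes. In EV-labelled cells 2 were called at 24 h against 13.7% of all genes, DUSP2 rising 0.63 and SPRED1 falling (-0.46), and DUSP6 was at 1.64 and 1.39 CPM at 12 h and 24 h. The treatment effect on DUSP6 differed between the lines by 1.61 at 24 h (adjusted p = 0.0022). The list's median was 0.06 in OE-labelled and -0.05 in EV-labelled cells at 24 h.

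Of 28 kinases and factors upstream of AP-1, 1 was called higher and 4 lower in OE-labelled cells at 24 h, where 8.26% of all genes were called. SRF, which drives EGR1 and FOS through the CArG box, fell by 1.07, from 105 to 49.9 CPM (adjusted p = 3.118e-06) while EV-labelled cells had 59.4 CPM untreated and 61.6 and 74.6 CPM at 12 h and 24 h. The difference between lines for SRF was -1.40 (adjusted p = 2.676e-05). RPS6KA4 fell by 0.57 and MAP2K2 by 0.46, while MAP2K6 rose 0.79. In EV-labelled cells 4 were higher and 2 lower at 24 h, against 13.7% of all genes called, with MAPK11 (0.62) and MAP2K2 (0.56) higher and MRTFB (-0.64) and RPS6KA3 (-0.47) lower. The opposite changes of MAP2K2 in the lines, like the others in this list, are given without the GC and length offset.

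Of 25 tested genes known as AP-1 targets, 10 were higher and 1 lower in OE-labelled cells at 24 h, against 4.71% of all genes called higher and 8.26% called in either direction. The median was 0.33 against 0.02 over all genes. LAMA3 rose 1.08 (adjusted p = 9.473e-06), HBEGF 0.68 and CDKN1A, the cell cycle inhibitor p21, 0.60. In EV-labelled cells 2 were higher and 5 lower, against 13.7% of all genes called, with CDKN1A at 1.07 (adjusted p = 6.294e-05), HMOX1 at 0.58, TNC at -1.56 and DKK1 at -1.33. At 12 h 3 were higher in OE-labelled cells, PLAUR (0.72), LIF (0.60) and CDKN1A (0.60), against 1.7% of all genes, and none in EV-labelled cells. Between the untreated lines 21 of 25 were higher and 3 lower in OE-labelled cells, where 72.7% of all genes were called, 39.4% higher and 33.3% lower. The median was 2.02 against 0.11 over all genes. Among those higher was ITGB4, which is also an epithelial adhesion gene, at 313 against 1.88 CPM.

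Heat shock genes were listed because immediate early genes can also respond to handling of cells. Of 11 tested, none was called at 12 h in either line. At 24 h 4 were higher and 2 lower in EV-labelled cells, against 13.7% of all genes called, with HSPE1 (0.89) and DNAJB1 (0.58) among the higher. In OE-labelled cells 3 were lower, against 8.26% of all genes called in either direction, HSPE1 (-0.74), HSPA8 (-0.43) and DNAJB1 (-0.28). The list's median was 0.29 and -0.17 in the 2 lines. The changes of JUN and JUND at that time had the same signs, but those in OE-labelled cells were not called. That of JUND in EV-labelled cells was called only without the GC and length offset. The part of handling in those changes was not tested.

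The genes whose pattern over the 6 groups lay nearest to a member were ranked by the root mean square difference of centered log2 means among 11593 genes. For JUN they were NHERF2 (0.06), ALDH1A3 (0.07) and CAMK2N2 (0.07). For EGR1 they were DUSP10 (0.08), GLIPR2 (0.08) and FZD7 (0.11), and DUSP10, a JNK and p38 phosphatase, had mean levels of 1.55 CPM untreated in EV-labelled and 9.47, 13.5 and 12.9 CPM in OE-labelled cells. For FOSL1 they were CRACDL (0.12), TRIM59 (0.13) and NEMP2 (0.14), and for FOS they were ACER2 (0.09), FOXP2 (0.10) and STING1 (0.11), the adaptor of cytosolic DNA sensing. Among the members themselves the closest pairs were FOSB with JUN (0.25), JUN with JUNB (0.27) and FOSL2 with ATF3 (0.30). The points share their libraries and the lines' contrast, and no test was made.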

How the data were processed

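RNA was extracted with TRIzol and libraries were prepared with the NEBNext Ultra II RNA kit, per the labels. The authors deposited whole-number counts of reads for each gene that were not normalized, and the table of all 18 libraries equals the 18 single-library tables. The submitters' processing notes name HISAT2, featureCounts and DESeq2 without versions and the build GRCh38 (hg38). Annotation and strand setting are not given in the sources used here. The 34966 of 35044 identifiers with a symbol were matched through a symbol table, and positions, length and GC content were taken from the GENCODE annotation and transcripts of GRCh38. Length is that of all exons of a gene together, and GC content is that of its longest transcript. Promoter windows are from RefSeq (GRCh38.p14).

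Counts were tested with edgeR 4.0.16 in R 4.3.3: TMM scaling, filterByExpr, a quasi-likelihood fit with 1 mean per group over all 18 libraries, and Benjamini-Hochberg adjustment over the 18335 genes tested, with a call at an adjusted p under 0.05. The biological coefficient of variation was 12.9%. CPM use the same scaled library sizes, and the level per kilobase divides CPM by exonic length. Intervals of log2 changes are at 95%. The script was tested on simulated counts. Alternatives were DESeq2 1.42.0 (size factors and Wald test), other filters, an offset from a smooth trend on GC content and length fitted with mgcv relative to each line's mean, the replicate number as a block, the compared groups alone, a minimum absolute log2 change of 1, and leaving out each library. The offset cannot remove a GC bias common to all libraries of 1 line, so any such bias stays in the differences between the lines. No replicate pair differed by as little as sampling noise.

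The members and gene lists were chosen with earlier results of these data known. Of each list the text names up to 4 called genes with the largest absolute change and a mean of at least 1 CPM, with levels added for SRF and DUSP6 in the other line, and for FOS, JUN, FOSL1 and EGR1 the 3 genes nearest in pattern. Some genes that this rule selects are not reported here. Of the marker lists, the genes named were chosen after their values were seen. DESeq2 gives no adjusted p to genes it filters out. Counts of 1 library without unique molecular identifiers cover counting error only.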

Additional observations from a re-analysis of the deposited data

Results flagged for a closer look

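For 5 genes the effect of 24 h of olaparib differed between the lines in the test of the difference itself, on the log2 scale and as OE-labelled minus EV-labelled. ATF3 stood at 0.92 (adjusted p = 0.000525 by the quasi-likelihood test of edgeR). All 3 treated OE-labelled libraries lay above all untreated ones, and the EV-labelled groups overlapped. JUND stood at -0.94 (adjusted p = 0.00347), and this difference was -0.03 with an offset for GC content and length. JUN stood at -0.72 (adjusted p = 0.00629) and remained called with that offset, at -0.44. DUSP1 stood at -0.82 (adjusted p = 0.0216) and was -0.50 and not called with the offset (adjusted p = 0.0837). Neither line's own change in DUSP1 was called, though that of EV-labelled cells was called by DESeq2's Wald test, with at least 10 counts in every library and with the compared groups alone (adjusted p 0.0144 to 0.0449). FOSB stood at -1.53 (adjusted p = 0.0312), with 6 to 70 reads in any library, and was -1.30 and not called with the offset (adjusted p = 0.0674). Groups of 3 libraries were too small to be searched for single deviating libraries.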

How the results depend on the processing

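Under the alternatives run, every call between the untreated lines kept its direction and its side of the threshold, except that FOSL2 did not exceed an absolute log2 change of 1. The number of members called changed as follows. DESeq2's Wald test called 5 in EV-labelled cells at 24 h, 3 in OE-labelled cells at 12 h, 3 at 24 h, 1 between 24 h and 12 h in OE-labelled cells and 1 for the difference between lines at 12 h, and DESeq2's size factors gave 10 between the lines at 24 h. Without a filter the counts were 1 (EV-labelled, 12 h, JUND), 4 (EV-labelled, 24 h) and 1 (difference, 12 h). With at least 10 counts in every library, where FOSB was not tested, they were 3 (EV-labelled, 24 h), 8 (between the lines, untreated and 12 h), 9 (between the lines, 24 h, with FOS gained), 1 (difference, 12 h) and 4 (difference, 24 h). The GC and length offset gave 4 (OE-labelled, 12 h), 3 (OE-labelled, 24 h), 10 (between the lines, 24 h), 1 (difference, 12 h) and 3 (difference, 24 h), and the same counts with the replicate block added. In EV-labelled cells at 24 h the count stayed at 2, with FOSL1 in place of JUND. Under these 2 settings the JUNB difference at 24 h reversed to 0.50 and 0.50. With the compared groups alone the counts were 4 (EV-labelled, 24 h), 1 (OE-labelled, 24 h), 1 (OE-labelled, 24 h against 12 h) and 10 (between the lines, 24 h). With an absolute log2 change over 1 no treatment call was left (0 in EV-labelled cells at 24 h and in OE-labelled cells at 12 h and 24 h), and 8, 6 and 5 were left between the lines untreated, at 12 h and at 24 h and 1 for the difference at 24 h. With 1 library left out the ranges were 1 to 3 in EV-labelled cells at 24 h, 1 to 2 and 1 to 3 in OE-labelled cells at 12 h and 24 h, 7 to 9 between the lines at 24 h, 0 to 2 for the difference at 12 h and 3 to 5 for that at 24 h. The replicate numbers were not taken to pair the libraries: of 45 pairs with the same number 14 had a correlation of deviations over 0.1, with a range of -0.424 to 0.528. The replicate block moved no count of members called, leaving 2 in EV-labelled cells at 24 h, 1 and 2 in OE-labelled cells at 12 h and 24 h, 9 between the lines and 5 for the difference at 24 h. Depth limits FOSB and FOS, with 6 to 116 reads in a library, and EGR1 in EV-labelled cells, with 22 to 44 reads.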
